A study of Mus musculus with 8 samples.

Results

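The data described here are the arrays of water-treated mice with and without the tail suspension test (TST). In that test mice hang by the tail for some minutes, and the time they spend immobile is scored. They are 4 of the 8 arrays of the series, 2 from mice given water without TST and 2 from mice given water with TST, and they were chosen by the group in the sample titles. The other 4 arrays are from mice that also had TST and drank rosemary extract (RE), 2 at a low dose (10 mg/kg) and 2 at a high dose (100 mg/kg in the titles, 50 mg/kg in another label). All mice were males of the outbred ICR strain, 8 weeks old when bought and given 1 week to settle in, and all drank plain water or extract for 7 days. RNA came from brain tissue that the labels call limbic system in some fields and hippocampus in another, and it was hybridised to Clariom S arrays. Neither the genotype nor any agent other than the extract differed between the mice by the labels. The agent field of the labels names the mice without TST as positive control, where the protocol calls them plain control, and those with TST as negative control in both places. The groups here follow the titles. The labels assign 7 mice to a group and do not say whether an array holds RNA of 1 mouse or of a pool, so the spread between arrays may be technical.

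An inescapable stressor such as TST activates the hypothalamus, the pituitary and the adrenal cortex, and the released glucocorticoids act on brain cells through nuclear receptors. Neuronal activity at the same time induces fast-responding transcription factors and phosphatases that switch MAP kinases off again. Several of these genes, Per1 among them, also belong to the circadian clock, a loop in which the activators ARNTL and CLOCK switch on the Per, Cry and Nr1d genes, whose products repress the activators in turn.

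The values are log2 signals as the authors deposited them. The 22206 rows of the table covered 19505 named genes, and each gene is described by the row with the highest mean over the 8 arrays. A gene was called separated where both arrays with TST lay above, or both below, the 2 arrays without TST. The gap is the smallest of the 4 differences between an array with TST and an array without, and a difference without further words is the mean with TST minus the mean without, with the standard error (SE) of a limma fit to all 8 arrays, n = 2 arrays per group. The study's own threshold, a fold change above 1.2 with an unadjusted p under 0.05, is taken from its design text. Because cerebellar RNA varied between arrays, a gene was kept only if its Pearson r with Gabra6 over the 8 arrays lay between -0.5 and 0.5. Gabra6 codes for the alpha 6 subunit of GABA-A receptors, typical of granule cells in the cerebellum.

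The arrays of a group were not alike. Gabra6 was at 14.31 and 8.42 on the arrays without TST and at 5.40 and 16.37 on those with TST. The highest and the lowest array both belonged to the TST group, and the groups overlapped widely. All 14 measured members of the cerebellar granule cell list overlapped between the groups, as did all 11 of the list for Purkinje cells and Bergmann glia. The mean of the granule cell list lay 1.76 and -0.493 from its 8-array mean on the arrays without TST and -0.874 and 3.25 from it on those with TST. On the RE arrays it lay between -1.04 and -0.683. The array water with TST replicate 2 also had the lowest mean of excitatory neuron markers of cortex and hippocampus, at -1.91 against -0.0813 to 0.526 on the other water arrays, and water without TST replicate 2 the highest mean of striatal projection neuron markers, at 1.57 against -1.09 to 0.246. In bulk RNA, fewer cells of a type and less RNA per cell cannot be told apart. Over rows, water with TST replicate 2 correlated at 0.967 to 0.978 with the other arrays, which correlated at 0.983 to 0.993 among themselves.

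**Figure D1:**
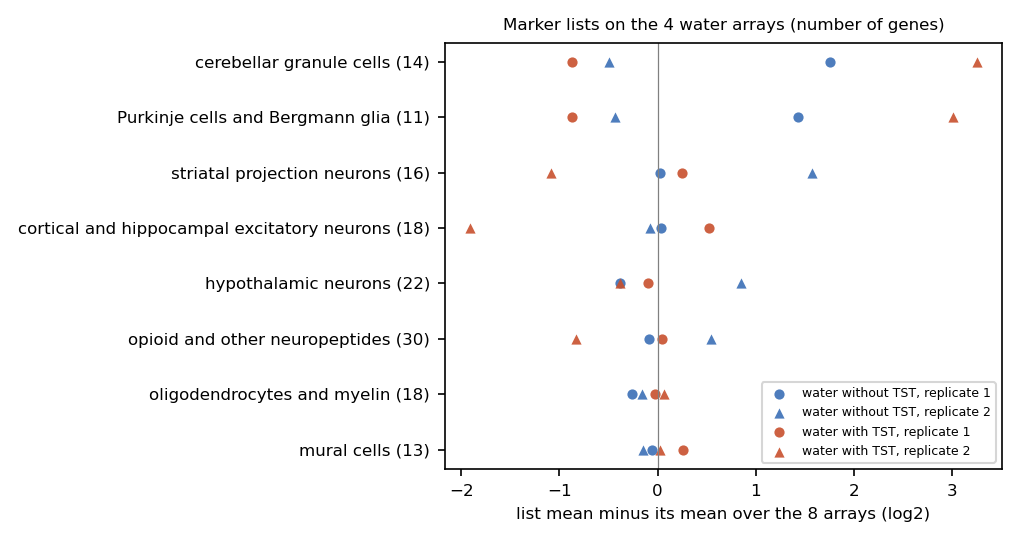
Mean of 8 marker and peptide lists on each of the 4 water arrays, as the log2 difference from the mean of the list over all 8 arrays; colour gives the group, circles replicate 1 and triangles replicate 2, and the number of genes stands in brackets. The cerebellar lists are high on water with TST replicate 2 (3.25 and 3.01) and water without TST replicate 1 (1.76 and 1.43), and the striatal list on water without TST replicate 2 (1.57).

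Of the 19505 genes, 2830 (14.5%) were separated upward with TST and 2497 (12.8%) downward, and the median difference over all genes was 0.01. Leaving out those that tracked Gabra6 left 2340 (12%) higher and 2131 (10.9%) lower. The study's threshold was passed by 255 genes (1.31%) upward and 223 (1.14%) downward, of which 219 and 192 were kept. By limma with Benjamini-Hochberg adjustment, 0 of 22206 rows were called at 0.05 (the lowest adjusted p was 0.997), with 567 rows at an unadjusted p under 0.05. The methods' analysis of variance was run here between the 2 water groups, on their 4 arrays alone and over named genes instead of rows. It likewise called 0 genes after adjustment and 691 before it. For 2 arrays against 2, an exact permutation test of a single gene cannot go below p = 0.333 (two-sided). If the 4 arrays differed only at random, a gene would be separated, 1 way or the other, with that probability of 0.333. The shares separated upward and downward together stayed below it. The shares of rows and of genes at an unadjusted p under 0.05 in these 2 tests were likewise smaller than 0.05. The counts alone therefore do not show a response to TST. These counts depend on single arrays. Without water with TST replicate 1, 1676 genes passed the study's threshold upward and 1606 downward, and 512 rows passed the limma test after adjustment. Without any 1 of the other 3 water arrays 0 rows did, and without either high-dose RE array the counts were 161 and 143. No single gene passed a corrected test on the full set of arrays, so the values that follow describe these 4 arrays, and the text says where groups overlapped.

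The genes with the widest gaps were named from those kept, past the study's threshold and not dim, that is, with at least 1 group mean over 7.47, the median signal. There were 93 such genes upward and 58 downward, and the 14 with the widest gap in each direction are described. At the edge of this choice, Tmem268 was the last gene taken upward with a gap of 0.57 and Gpc1 the first not taken with 0.55. Downward, H2bc4 was taken at -0.48 and Pla2g15 was not at -0.47. At the limit on tracking Gabra6, Tspan14 was inside at an r of -0.498 and Tmem88 outside at 0.501. As these values chose the genes, they describe them and test nothing.

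The widest gap upward was that of Nr1d1, which encodes REV-ERB alpha, the nuclear receptor that represses Arntl in the clock. It was at 11.84 and 11.61 without TST and at 12.67 and 12.91 with TST. Both arrays with TST were high and close together, and the difference was 1.06 (SE 0.262). On the low-dose RE arrays it was at 12.47 and 12.23 and on the high-dose ones at 11.95 and 12.45. All 4 lay between the water groups. Dusp1 encodes the phosphatase that switches off p38, JNK and ERK kinases after stress and is switched on by glucocorticoids. It was at 12.74 and 12.71 without TST and at 13.39 and 14.17 with TST, a difference of 1.05 (SE 0.384). Here the arrays without TST nearly coincided while those with TST were spread, and the threshold, passed on all arrays, was passed in only 1 of the 4 fits without a water array, that without water with TST replicate 1. Without water with TST replicate 2 the difference was 0.665.

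In windows around annotated starts, Dusp1 carries letters long tied to the clock and to cyclic AMP signalling, and Per1 only those tied to the clock. Both genes are shown for that reason, with Slc6a3, the gene of widest gap downward. Each window runs from 250 bases before to 50 bases after a gene start in RefSeq, build GRCm38.p6, and is written 5' to 3' on the gene's strand. Capitals mark the E-box CACGTG and the cyclic AMP response element (CRE) TGACGTCA, both of which read the same on either strand and do not overlap here. Dusp1 lies at chr17:26508423-26508722 on the minus strand, Per1 (the first of its 2 listed starts) at chr11:69098699-69098998 on the plus strand and Slc6a3 at chr13:73536497-73536796 on the plus strand.
Dusp1: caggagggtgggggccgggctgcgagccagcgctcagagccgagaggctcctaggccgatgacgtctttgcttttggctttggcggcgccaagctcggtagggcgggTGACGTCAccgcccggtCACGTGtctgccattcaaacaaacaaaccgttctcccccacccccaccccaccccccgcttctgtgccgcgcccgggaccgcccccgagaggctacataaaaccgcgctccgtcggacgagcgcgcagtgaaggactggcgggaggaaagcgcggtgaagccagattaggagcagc
Per1: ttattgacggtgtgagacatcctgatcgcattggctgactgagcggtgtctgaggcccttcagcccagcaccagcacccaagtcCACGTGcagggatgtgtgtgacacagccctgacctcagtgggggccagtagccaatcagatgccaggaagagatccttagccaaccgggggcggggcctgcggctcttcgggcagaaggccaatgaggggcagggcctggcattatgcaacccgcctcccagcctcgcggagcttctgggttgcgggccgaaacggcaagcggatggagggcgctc
Slc6a3: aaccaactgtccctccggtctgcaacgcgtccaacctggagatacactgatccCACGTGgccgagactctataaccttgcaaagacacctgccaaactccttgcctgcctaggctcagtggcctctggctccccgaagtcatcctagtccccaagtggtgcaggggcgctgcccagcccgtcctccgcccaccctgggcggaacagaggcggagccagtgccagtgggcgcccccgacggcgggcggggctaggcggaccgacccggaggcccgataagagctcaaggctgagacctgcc

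The E-box was found in 7.15% and the CRE in 1.79% of all 32851 windows of this length. Of the 28 leading genes, 21 matched the window table with 24 windows. The E-box was in the windows of Dusp1 and Slc6a3, and the CRE in that of Dusp1. Of the 23 listed clock genes, 19 matched with 28 windows. The E-box was in 6 windows of 5 genes, namely Bhlhe41, Ciart, Cry1, Per1 and Tef, and the CRE in 1 window, that of Hlf. The window of Nr1d1 and that of the second listed start of Per1 hold neither motif. Such a match is a run of letters and not a measured binding site.

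The other 12 leading genes with higher values were between 0.69 and 0.98 higher with TST. Mars2, a mitochondrial methionyl-tRNA synthetase, was at 7.53 and 7.60 without TST and at 8.39 and 8.43 with TST. Homez, a homeobox gene, was at 7.80 and 7.62 against 8.56 and 8.61 with TST. Ercc1, a subunit of the nuclease that cuts beside damaged DNA in nucleotide excision repair, was at 6.87 and 7.04 against 7.88 and 7.77. The arrays of each group lay within 0.18 of each other for these 3 genes, far less than the gap, which was between 0.73 and 0.79.

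Micall1, an adaptor of endocytic recycling, was at 6.67 and 6.77 without TST and at 7.47 and 7.89 with TST, with the RE arrays between 7.35 and 7.67. Igfbp5, a secreted protein that binds insulin-like growth factors, was at 11.00 and 10.59 against 11.61 and 11.94. Kcnj11, the pore subunit of the ATP-sensitive potassium channel, was at 7.58 and 7.15 against 8.21 and 8.18. For these genes the pair of arrays in 1 group was spread by about 0.4 and the groups still did not overlap.

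Arf6, a small GTPase of endocytosis and membrane traffic, was at 10.84 and 10.60 without TST and at 11.41 on both arrays with TST. Mocs2, an enzyme of molybdenum cofactor synthesis, was at 8.73 and 8.79 against 9.41 and 9.63. Trmt12, a tRNA-modifying enzyme, was at 7.85 and 8.07 against 8.69 and 8.71. Supt3, Rexo5 and Tmem268 were 0.71, 0.855 and 0.715 higher with gaps of 0.63, 0.59 and 0.57. RE arrays of Supt3, Mocs2, Rexo5 and Tmem268 reached down to 7.18, 8.25, 6.78 and 7.06, near or below the arrays without TST.

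**Figure D2:**
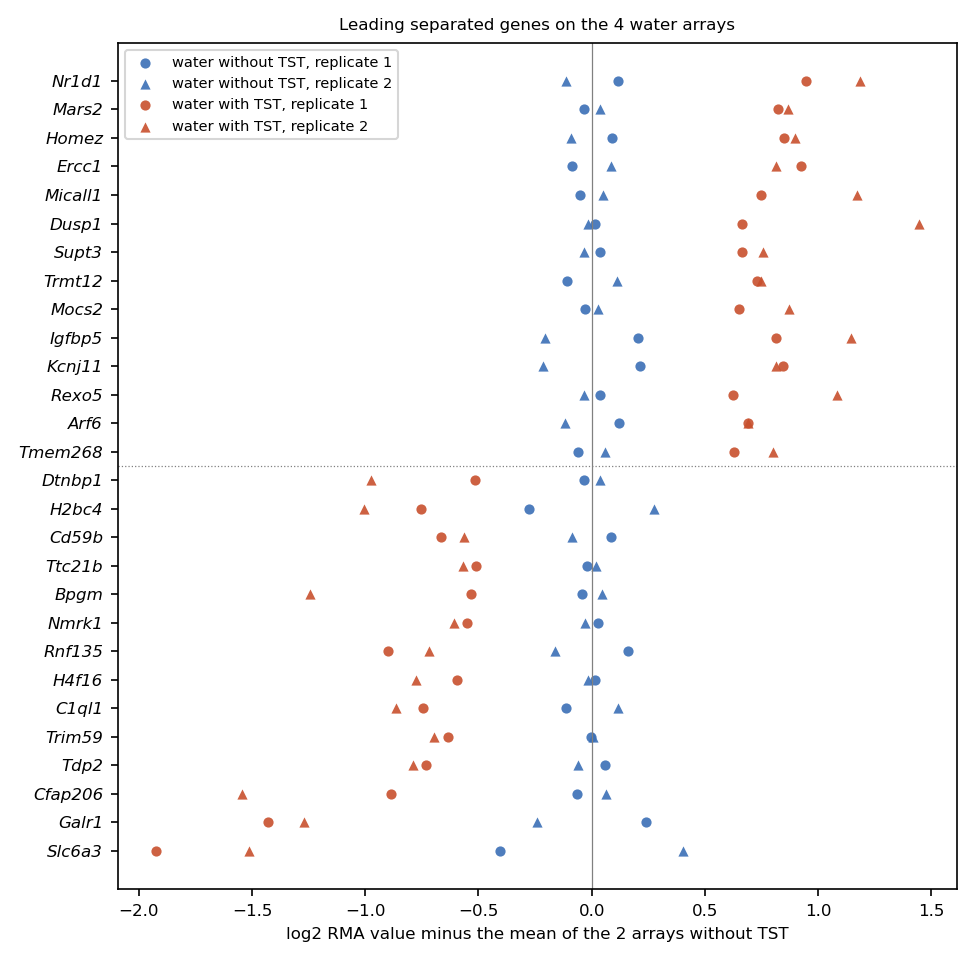
Values of the 28 leading genes on the 4 water arrays, each as the log2 value minus the mean of the 2 arrays without TST; blue is without and orange with TST, circles are replicate 1 and triangles replicate 2, and the dotted line divides genes higher with TST (top) from genes lower with TST (bottom). No gene overlaps between the groups, with gaps from 0.57 to 0.83 above the line and from -1.11 to -0.48 below it, and Dusp1, Bpgm and Cfap206 show the widest spread between the arrays with TST.

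Downward, Slc6a3 had the widest gap. It encodes the dopamine transporter, a marker of midbrain dopamine neurons. It was at 7.38 and 8.19 without TST and at 5.86 and 6.27 with TST, a difference of -1.72 (SE 0.696). On the RE arrays it was at 5.83, 6.49, 8.58 and 6.12, the value of 8.58 on high-dose replicate 1 being higher than any water array. Th, the gene of tyrosine hydroxylase in the same neurons, was at 7.18 and 8.65 against 6.51 and 7.65, so its groups overlapped (difference -0.835, SE 0.599). Of the 17 measured members of the monoaminergic neuron list, 1 (5.88%) was separated upward and 2 (11.8%) downward, against 14.5% and 12.8% of all genes. The median difference was -0.065. Only Slc6a3 of that list passed the study's threshold, and of the fits without 1 water array only that without water without TST replicate 1 kept it past (-2.12), while without replicate 2 of that group it was at -1.31.

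Galr1, a receptor of the neuropeptide galanin, was at 8.05 and 7.57 without TST and at 6.38 and 6.54 with TST. Its groups lay 1.03 apart at the nearest arrays, and the difference was -1.35 (SE 0.341). The RE arrays, at 6.70, 7.60, 7.35 and 6.98, all lay above the arrays with TST and reached the lower of those without. Cfap206, a protein of the ciliary axoneme, was at 8.37 and 8.50 against 7.55 and 6.89, a difference of -1.21 (SE 0.291). Ttc21b, of the intraflagellar transport of cilia, was at 8.82 and 8.86 against 8.33 and 8.27. On the RE arrays Cfap206 lay between 8.02 and 8.50 and Ttc21b between 8.48 and 8.79, above both water arrays with TST in each case.

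Tdp2, which removes trapped topoisomerase from DNA ends, was at 10.86 and 10.74 without TST and at 10.07 and 10.01 with TST. C1ql1, a secreted synapse organiser, was at 9.92 and 10.15 against 9.29 and 9.17. Trim59 was at 9.41 and 9.42 against 8.78 and 8.72. In these genes the arrays of a group lay within 0.23 of each other.

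A pair of histone genes was among the leading genes downward. H2bc4, of the H2B family, was at 12.08 and 12.63 without TST and at 11.60 and 11.35 with TST. H4f16, of the H4 family, was at 7.81 and 7.78 against 7.20 and 7.02. Histone genes of a family are nearly identical in sequence, so their probes may share signal and the values are uncertain as to the copy. Rnf135, a ubiquitin ligase of the RIG-I pathway, was at 8.02 and 7.70 against 6.96 and 7.14. Nmrk1, a nicotinamide riboside kinase, was at 9.15 and 9.09 against 8.57 and 8.51. Bpgm, the bisphosphoglycerate mutase, was at 9.76 and 9.85 against 9.27 and 8.56. Cd59b, an inhibitor of complement lysis, and Dtnbp1, or dysbindin, of endosomal sorting, differed by -0.615 and -0.745, each with a gap of -0.48.

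As the 28 genes were chosen as separated, leaving out any 1 of the 4 water arrays could not change their direction. Past the study's threshold in each of these 4 fits were 8 of them: Nr1d1, Homez, Ercc1, Micall1, Igfbp5, Rexo5, Galr1 and Cfap206. Without water with TST replicate 2, 12 of the 28 passed, without water without TST replicate 1 13, without water without TST replicate 2 12, and without water with TST replicate 1 20. With the Gabra6 value as a covariate, all 28 passed. They had been chosen as past the threshold and as not tracking Gabra6, so this fit was no further test of them. The part of cerebellar content in their values was not tested.

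**Figure D3:**
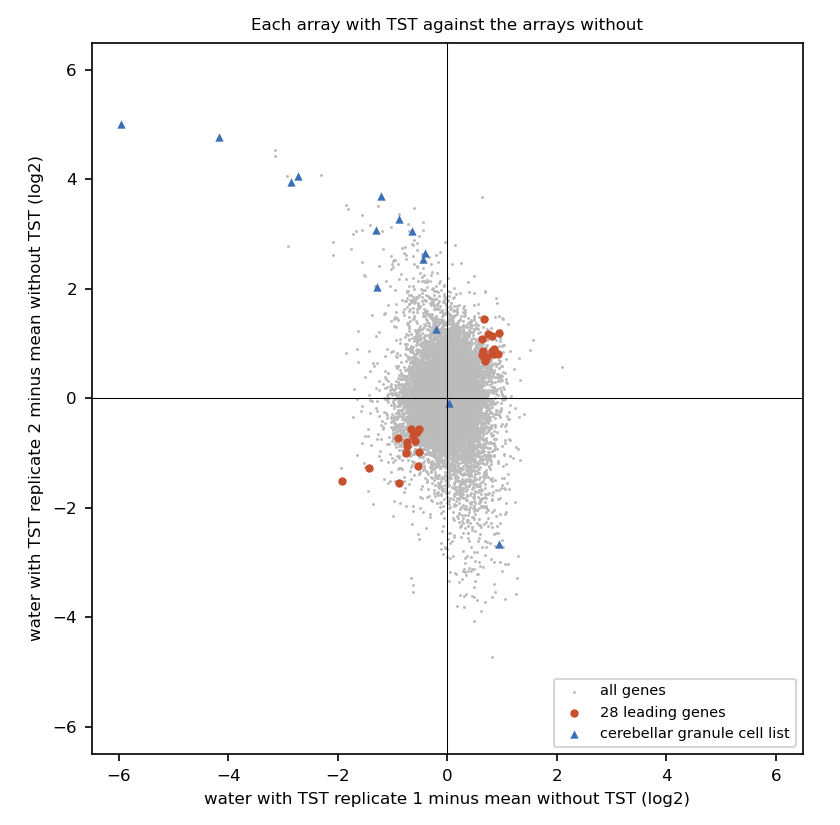
Each of the 19505 genes as the difference of water with TST replicate 1 (x axis) and of replicate 2 (y axis) from the mean of the 2 arrays without TST, in log2 units; orange points are the 28 leading genes and blue triangles the cerebellar granule cell list. The leading genes lie in the upper right and lower left, where both arrays moved the same way, while most of the cerebellar list lies in the upper left, with Gabra6 low on replicate 1 and high on replicate 2.

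The clock list was led by Nr1d1. Of its 22 measured genes, 7 (31.8%) were separated upward and 2 (9.09%) downward, against 14.5% and 12.8% of all genes, with a median difference of 0.217 against 0.01. Only Nr1d1 passed the study's threshold. Per1, a light- and glucocorticoid-responsive repressor of the clock, was at 9.07 and 9.00 without TST and at 9.61 and 9.44 with TST, a difference of 0.49 (SE 0.214) that missed the threshold. The RE arrays lay between 9.41 and 9.58 and so within or beside the range with TST. Per3 was at 11.53 and 11.31 against 11.77 and 11.70, and Usp2, a deubiquitinase of clock proteins, at 10.86 and 10.06 against 11.04 and 11.06.

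Nr1d2, the paralog of Nr1d1, was at 13.01 and 13.00 without TST and at 13.09 and 13.69 with TST, and Ciart, a further repressor, at 9.56 and 9.46 against 10.14 and 9.81. Cry2 was at 12.68 and 12.72 against 13.02 and 12.87. These 3 genes separated but tracked Gabra6 and were not kept. Arntl, the activator that Nr1d1 represses, was at 11.13 and 11.07 without TST and at 10.91 and 10.87 with TST, a difference of -0.21 (SE 0.210). Its 4 arrays with RE lay between 10.88 and 10.93, next to the arrays with TST. Bhlhe41 was the other gene separated downward, at -0.065. Dbp, an output gene of the clock, was at 15.91 and 16.10 against 16.03 and 16.15, with overlapping groups and a difference of 0.085 (SE 0.256). The labels used here give no hour of tissue collection, and its part in these values was not tested.

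**Figure D4:**
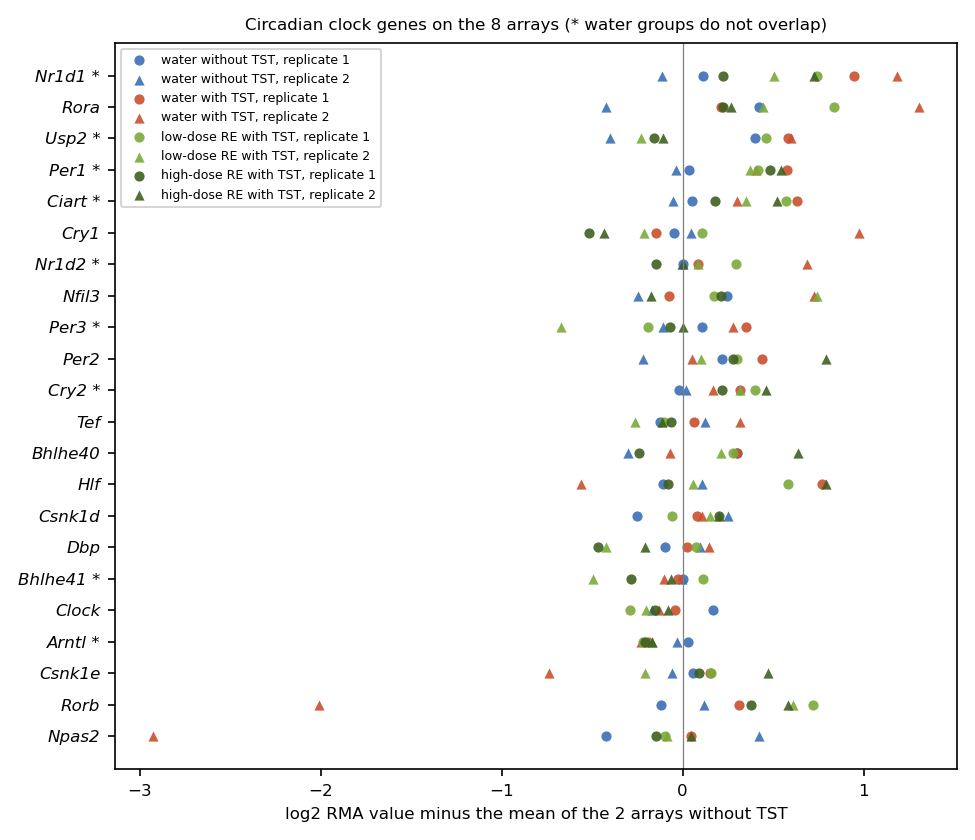
The 22 measured clock genes on all 8 arrays, as the log2 value minus the mean of the 2 water arrays without TST; colour gives the group, circles replicate 1 and triangles replicate 2, and an asterisk marks the 9 genes whose water groups do not overlap. Nr1d1 is at the top with 1.06, Arntl near the bottom with -0.21, and Npas2 and Rorb are low on water with TST replicate 2 alone.

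Of the genes that respond to glucocorticoids, 7 of 23 measured (30.4%) were separated upward and 2 (8.7%) downward, against 14.5% and 12.8% of all genes, with a median difference of 0. Dusp1 and Per1, described above, were the widest. The cell cycle inhibitor Cdkn1a was at 6.58 and 6.61 without TST and at 6.78 and 7.01 with TST. Klf9, a transcription factor that the receptor induces, was at 13.46 and 13.38 against 13.77 and 13.52, and Ddit4, an inhibitor of mTOR, at 8.18 and 8.38 against 8.52 and 8.49. These differences were 0.30, 0.225 and 0.225, about the size of their SE (0.256, 0.234 and 0.226). Lcn2 and Nfkbia were the remaining genes separated upward, at 0.315 and 0.25. Plin4, a lipid droplet protein, was at 7.07 and 7.18 against 6.60 and 6.70, and the other gene lower was Gjb6, at -0.2.

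Other well-known targets overlapped between the groups. Fkbp5, a chaperone that restrains the receptor, was at 11.78 and 11.98 without TST and at 12.11 and 10.32 with TST. Sgk1, a kinase, was at 10.92 and 10.58 against 11.31 and 10.05. The receptor gene Nr3c1 was at 9.28 and 9.18 against 9.38 and 8.84. In all 3, the highest and the lowest of the 4 arrays both had TST, and water with TST replicate 2, the array highest in cerebellar markers, was the lowest. Whether its makeup sets these values was not tested.

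Fos, the classic marker of neuronal activation, was at 7.56 and 7.83 without TST and at 8.02 and 8.06 with TST, a small difference of 0.345 (SE 0.331). On the high-dose RE arrays it was higher, at 8.61 and 9.60. Among 22 measured immediate early genes, only Fos and Egr4 were separated, both upward (9.09% against 14.5% of all genes), and 0 passed the study's threshold. Of the 22, 17 tracked Gabra6. The list median of -0.0075 was 0.4 without water with TST replicate 2 and -0.4575 without replicate 1 of that group. The 2 arrays with TST thus pulled this list in opposite directions. Egr4 was 0.26 higher. Arc, an activity-induced synaptic gene, was at 8.49 and 8.69 without TST and at 9.89 and 7.67 with TST, and Bdnf at 9.69 and 9.28 against 10.18 and 9.18, both with the TST arrays on either side of the others. Of the 11 MAP kinase phosphatases, Dusp1, Dusp4 (0.425) and Dusp8 (0.12) were separated upward (27.3%, against 14.5% of all genes). Dusp2 (-0.28) was separated downward (9.09%, against 12.8%), and only Dusp1 passed the threshold.

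The list with the highest share of separated genes downward was that of opioid and other neuropeptides and their receptors. Of 30 measured, 12 (40%) were separated downward, against 12.8% of all genes, and 0 upward. The median difference was -0.697 and 8 passed the study's threshold downward, against 1.14% of all genes: Galr1, Tac1, Penk, Nts, Oprk1, Tacr1, Cartpt and Tacr3. Nts, the neurotensin precursor, was at 7.49 and 8.81 without TST and at 6.91 and 7.10 with TST. Cartpt, the precursor of a peptide that suppresses feeding, was at 8.56 and 9.81 against 8.18 and 8.09. Its high-dose RE arrays, at 9.52 and 9.23, lay back in the range without TST, and its low-dose ones at 8.57 and 8.19.

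Receptor genes of the list were lower too. Tacr3, which binds neurokinin B, was at 7.91 and 8.46 without TST and at 7.50 and 7.13 with TST. Oprk1, the kappa opioid receptor, was at 8.81 and 9.80 against 8.60 and 7.74, and Tacr1, which binds substance P, at 7.02 and 8.08 against 6.88 and 6.07. The substance P precursor Tac1 was at 12.17 and 13.98 against 12.10 and 11.19, so that replicate 1 of the groups differed by only 0.07. Penk, the enkephalin precursor, was at 14.81 and 16.47 against 14.60 and 14.12. Gal, the galanin precursor, was at 4.61 and 6.07 against 4.39 and 4.51, among the dim values of the array.

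In all 12 separated genes except Galr1 and Pnoc, water without TST replicate 2 was the highest array. It was also the highest in the 16 measured striatal projection neuron markers, where 6 (37.5%) were separated downward, against 12.8% of all genes, and 0 upward. The median difference was -1.26, and 5 of the 16 passed the threshold downward, against 1.14% of all genes. Of the 6, Pde10a, a striatal phosphodiesterase, was at 14.06 and 15.52 without TST and at 13.83 and 13.27 with TST, and the orphan receptor gene Gpr52 at 11.19 and 12.71 against 10.80 and 10.48. Scn4b and Syndig1l differed by -0.82 and -0.755. Without water without TST replicate 2 the median of the peptide list was -0.295 and that of the striatal list -0.412. Without water with TST replicate 2 they were -0.17 and -0.573. The part of striatal content in the peptide values was not tested.

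Crh, the hypothalamic peptide that starts the stress response, was at 7.23 and 8.01 without TST and at 6.90 and 6.88 with TST, a difference of -0.73 (SE 0.285). Its RE arrays lay between 6.85 and 6.98, next to the arrays with TST. It passed the threshold on all arrays, but of the 4 fits without 1 water array only in that without water without TST replicate 1. Without replicate 2 of that group the difference was -0.34. Ucn, a related peptide, differed by -0.585, and 2 of the 10 genes of this system were separated downward (20%, against 12.8% of all genes). The receptor gene Crhr1 passed the threshold upward with overlapping groups, at 9.43 and 8.19 against 9.29 and 11.04, and tracked Gabra6. Of the 22 hypothalamic markers, 3 were separated downward (Cartpt, Gal and Crh), or 13.6% against 12.8% of all genes, and 0 upward. The median of this list, -0.44, was 0.0125 without water without TST replicate 2. The list mean was highest on water without TST replicate 2, at 0.853 against -0.382 to -0.0984 on the other water arrays. Oxt was at 6.55 and 7.70 against 6.49 and 7.27, and Avp at 5.63 and 8.60 against 5.97 and 7.88. Both peptides were high on replicate 2 of each group and overlapped between the groups. Of the 12 measured genes of the oxytocin and vasopressin system, Magel2 (-0.69) and Pou3f2 (-0.295) were separated downward (16.7%, against 12.8% of all genes).

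Mural cells, the pericytes and smooth muscle of brain vessels, had the highest share of separated genes upward, 9 of 13 (69.2%) against 14.5% of all genes and 0 downward. The differences were small, with a median of 0.275, and 0 passed the study's threshold. Pdgfrb, the receptor that holds pericytes at vessels, was at 8.91 and 9.23 without TST and at 9.59 and 9.38 with TST. Rgs5 was at 9.99 and 10.33 against 10.77 and 10.41, and Cspg4, or NG2, at 5.99 and 6.13 against 6.78 and 6.48. Notch3 (0.425), Abcc9 (0.45), Cnn1, Myh11, Vtn and Anpep were the rest. Rgs5, Vtn and Anpep tracked Gabra6 and were not kept. The median lay between 0.18 and 0.28 when any 1 water array was left out. Of 14 endothelial genes, 3 (21.4%) were separated upward and 1 (7.14%) downward, against 14.5% and 12.8% of all genes. Those upward were led by the efflux transporter gene Abcb1a at 0.4 and Tie1 at 0.56. Slco1a4 (0.07) and Pecam1 (-0.1) differed by less than their SE.

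Oligodendrocyte and myelin genes were separated upward in 8 of 18 (44.4%) and downward in 0, against 14.5% and 12.8% of all genes, with a median of 0.24. Gjb1, the connexin 32 gene of myelinating cells, was at 7.29 and 6.91 without TST and at 7.70 and 8.32 with TST, and was the only gene of the list past the threshold (0.91, SE 0.331). Without water with TST replicate 2 it was at 0.60, without water without TST replicate 2 at 0.72, and past it in neither. Cldn11, the tight junction claudin of myelin, was at 12.28 on both arrays without TST and at 12.62 and 12.75 with TST. Gjc3, a further connexin, was at 13.62 and 14.05 against 14.18 and 14.61. Mag, Mog, Cnp, Sox10 and Aspa were between 0.23 and 0.36 higher. The RE arrays of Cldn11 lay between 12.63 and 13.01, above both arrays without TST, and those of Mog between 10.65 and 11.72.

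Folding chaperones and sensors of the endoplasmic reticulum were separated downward in 4 of 18 (22.2%) and upward in 0, against 12.8% and 14.5% of all genes, with a median of -0.0975. Hspa5, the chaperone BiP, was at 14.87 and 14.97 without TST and at 14.47 and 14.35 with TST, a difference of -0.51 (SE 0.215) just past the threshold, which it missed in each fit without 1 water array. Calr, calreticulin, was at 15.76 and 15.74 against 15.47 and 15.39. Xbp1 and Sdf2l1 differed by -0.275 and -0.48. In Hspa5 and Calr the arrays of a group lay within 0.12 of each other. Of 12 heat shock chaperones, 1 (8.33%) was separated upward and 2 (16.7%) downward, with the small chaperone gene Hspb1 at -0.58.

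Over all genes, 14.5% were separated upward and 12.8% downward, and the shares of the metabolic lists stand beside these. Nuclear subunits of oxidative phosphorylation were separated upward in 12 of 43 (27.9%) and downward in 3 (6.98%), with a median of 0.09. This median was 0 without water with TST replicate 2. Ndufa2, of complex I, was at 10.18 and 10.01 without TST and at 10.72 and 10.88 with TST and passed the threshold, but of the fits without 1 water array only in that without water with TST replicate 1, while Ndufv2, of the same complex, was at -0.42, Cox8a at 0.37 and Uqcrc2 at -0.33. Cytosolic ribosomal protein genes were separated downward in 8 of 31 (25.8%) and upward in 1 (3.23%), with a median of -0.175. Rpl22 (-0.405), Rpl23, Rpl6 and Rps14 were its widest kept members. Without water with TST replicate 2 that median was 0.035. In the Nrf2 antioxidant list, 4 of 17 (23.5%) were separated upward and 2 (11.8%) downward, and the glutathione transferase gene Gstm1, at 14.35 and 14.27 against 14.87 and 14.91, was the only member past the threshold, but in no fit without 1 water array. Srxn1 (0.29), Gclc (0.21) and Sqstm1 (-0.385) were not. Cyp51, of cholesterol synthesis, was at 12.39 and 12.55 without TST and at 11.87 and 11.82 with TST, with a difference of -0.625 (SE 0.279) that missed the threshold. Mvk (-0.32) was also lower, and 1 of the 19 measured genes of that list was separated upward.

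Among 22 interneuron markers, 2 (9.09%) were separated downward and 0 upward, against 12.8% and 14.5% of all genes. Gad2, an enzyme of GABA synthesis, was at 12.73 and 13.47 without TST and at 12.18 and 12.48 with TST. The GABA-A receptor gamma subunit gene Gabrg1 was 1 of 11 subunits separated, at 10.22 and 11.12 against 9.95 and 9.55. The glycine receptor subunit gene Glra3 was 1 of 8, at 10.92 and 11.50 against 10.56 and 8.91. Of 16 ionotropic glutamate receptor genes 0 were separated. In excitatory neurons of cortex and hippocampus 1 of 18 (5.56%) was separated, upward. It was the transcription factor Neurod2, at 8.75 and 7.12 against 8.95 and 9.38. Its difference of 1.23 was 0.415 without water without TST replicate 2. Of the 18 genes, 3 were higher and 15 lower with TST. The list median of -0.93 was 0.4675 without water with TST replicate 2. The regulator Prox1 of dentate granule cells was at 10.10 and 9.44 against 10.50 and 11.24, and its list had 3 of 13 (23.1%, against 14.5% of all genes) separated upward, among them Tdo2 at 0.275, and 1 downward.

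Of 20 monoamine receptor and degradation genes, 1 was separated upward (Drd4, 0.515) and 4 downward (20%, against 12.8% of all genes), namely Htr1b at -0.61, Htr2b, Htr5a and Htr6. Cholinergic genes were separated upward in 3 of 17 (17.6%) and downward in 2 (11.8%), against 14.5% and 12.8% of all genes. Chrnb4, a nicotinic receptor subunit, stood out there, at 5.83 and 5.67 without TST and at 6.78 and 6.72 with TST. Its gap of 0.89 was wider than that of any leading gene upward, but its level lay below the median of all values, which kept it out of that choice. Its difference of 1.00 (SE 0.225) passed the threshold in each fit without 1 water array. On the RE arrays it was at 6.72, 6.56, 6.23 and 5.98. Chrm5 (-0.87) and Chrm2 (0.175) were further kept members.

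In the remaining lists, 2 of 17 astrocyte genes were separated upward and 2 downward, with Sox9 at 9.69 and 10.04 without TST and at 10.38 and 10.78 with TST, past the threshold but not in the fit that left out the second of these arrays with TST or the first of those without. Gfap was 0.055 higher and Cldn10 0.13 lower on the log2 scale. The share of this list was 11.8% each way, and over all genes it was 14.5% upward and 12.8% downward. Microglial genes were separated in 1 of 16 each way (Sall1 at -0.205 downward), oligodendrocyte precursors in 2 of 8 upward and 1 downward, thalamic neurons in 1 of 14 each way and choroid plexus in 1 of 14 each way (Otx2 at 0.73, Lmx1a at -0.12). Meningeal fibroblasts had 1 of 16, upward (Igf2 at 0.38). Neurotrophins and their receptors had 1 of 12 each way, with Ngfr at 0.18. En1 was the monoaminergic gene separated upward, at 0.37. Cytokines and chemokines were separated upward in 3 of 20 (15%) and downward in 5 (25%). Il1a (-0.695), Il6 (-0.45), Cxcl1 (-0.42) and Ccl5 (0.59) were at most at 5.78 on any water array, among the dim values, and 0 passed the threshold. Of the erythrocyte list only 2 genes were measured, and 0 were separated.

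**Figure D5:**
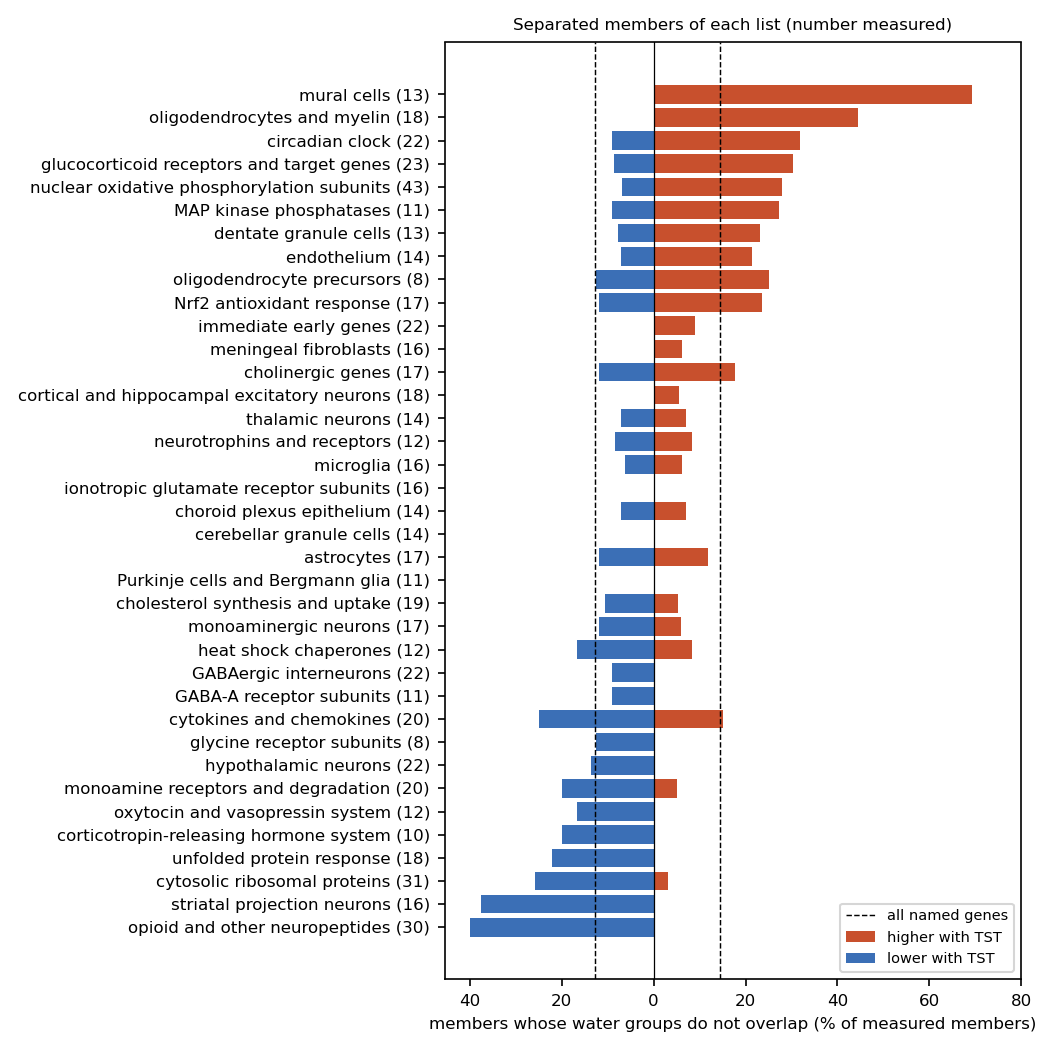
Share of the measured members of each of 37 lists whose water groups did not overlap, in percent, to the right (orange) for higher and to the left (blue) for lower with TST; dashed lines give the same shares over all 19505 genes, and the number of measured genes stands in brackets. Mural cells (69.2%) and myelin (44.4%) reach farthest right, the neuropeptides (40%) and striatal projection neurons (37.5%) farthest left, and the cerebellar lists have no bar.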

How the data were processed

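RNA of 8 brain samples was measured on 1 Clariom S array each. Per the series' design text, the authors normalized the arrays with RMA in Transcriptome Analysis Console 4.0.1, and deposited log2 values, which run from 2.76 to 19.79. Since a 16-bit scanner ends at 16 and 1359 values are higher, the scale may be stretched. They carry no detection call, and precision is limited by the few arrays. By the platform annotation 19572 rows had 1 symbol and 0 several, all found in the gene table by identifier, while 2634 stayed without a name.

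A group means model was fitted to all 8 arrays with limma 3.58.1 in R 4.3.3 (4 residual and 4.30 prior degrees of freedom), two-sided, with Benjamini-Hochberg adjustment over 22206 rows. The 38 gene lists were described by counts and medians, not tested. Named were the 14 genes of widest gap in each direction, up to 4 kept members of each list by size of difference, and 16 genes whatever their values; a few further separated list members were named after their values were seen. Predicted loci, chemosensory receptors, microRNAs and small nucleolar RNAs were left out of the first choice. Members and lists were chosen with earlier results of these data known. The main fit did not pair arrays by the replicate numbers of the titles (correlation of deviations between the water groups -0.293). Gabra6 was higher on replicate 1 without TST but on replicate 2 with TST, so this correlation cannot decide whether the numbers mark pairs. The alternatives were a replicate block, other samples, priors, filters, scalings, row and tracking rules, a Gabra6 covariate, the methods' analysis of variance and leaving out each array. The code was tested on simulated data.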

Additional observations from a re-analysis of the deposited data

How the results depend on the processing

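The counts past the study's threshold (255 higher, 223 lower) came to 161 and 130 with only the 4 water arrays and to 766 and 683 with Gabra6 as a covariate. Leaving out 1 array gave 161 to 1676 higher and 143 to 1606 lower, the top values without water with TST replicate 1, where 512 rows also passed the adjusted test, and the lowest without a high-dose RE array, which changes only the spread. The other settings kept both counts within 1.5 times. With the replicate block they were 215 and 205. With crossed numbers, an alternative chosen after seeing the data, they were 273 and 300. The kept genes (2340 higher, 2131 lower) came to 1530 higher with r under 0.3 and, with 1 array left out, to 2190 to 4883 higher and 1996 to 4665 lower, since 1 array against 2 separates more easily. Of 1977 values of 117 named genes, 1746 kept direction and side of the threshold, 170 fell below it, 47 rose past it and 14 changed sign, all with 1 array left out. Ranges of the genes that changed sign were -5.96 to 5.005 for Gabra6, -0.92 to 1.3 for Arc, -0.01 to 0.18 for Dbp, -1.56 to 0.23 for Fkbp5, -0.7 to 0.56 for Sgk1, -0.39 to 0.15 for Nr3c1, -0.82 to 0.33 for Oxt, -1.68 to 1.29 for Avp and -0.305 to 0.695 for Bdnf. Differences near the SE, whose median was 0.292, cannot be told from the spread of 2 arrays. No level could be set against a background signal.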
